A study of Mus musculus with 5 samples.

Results

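The regions described here are the CUT&RUN peaks of a Bclaf1 knockout (KO) library that lay inside protein-coding genes and were called in no other library of the study. A peak counted when it lay on chromosomes 1 to 19, shared not 1 base with any peak of the other 4 libraries, and overlapped the annotated span of at least 1 protein-coding gene by 1 bp or more. There were 1097 such KO-only gene peaks, in 868 genes, among 4712 peaks deposited for the KO library and 7045 deposited for all 5 libraries. They were chosen by the peak calls themselves, so their absence from the other lists and the presence of a gene at each are the rule and not a result.

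The study mapped BCLAF1 in mouse blood stem and progenitor cells with the same antibody in every library. HSC libraries came from E17.5 (embryonic day) fetal liver, with 50000 cells each pooled from 24 to 26 embryos: 2 were wild type (WT 1 and WT 2) and 1 was KO. A broader progenitor population, LSK cells (lineage-negative, Sca-1-positive, Kit-positive), was wild type and gave 1 native library and 1 library fixed with 0.1% formaldehyde for 2 min, also of 50000 cells. The protocol names adult bone marrow of 2 to 3 pooled mice as the LSK source while the tissue label names E17.5 fetal liver. The sources used here do not name the allele or any Cre driver behind the KO, and peak lists hold no expression or protein level by which the label could be checked. With 1 KO library there is no replicate of any region, and no test across samples was possible.

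BCLAF1 is a nuclear protein of RNA-processing complexes that also acts in transcription and apoptosis. In CUT&RUN an antibody tethers a nuclease to chromatin and the cut fragments are sequenced, with a tethered or free nuclease also cutting accessible chromatin that lacks the target. A peak from cells labelled KO is therefore a record of what the assay recovered there, not a mapped BCLAF1 site. A long gene offers more bases in which any peak can lie than a short gene does, and many genes of neuronal adhesion and signalling are among the longest in mammals.

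Of 3836 KO peaks on chromosomes 1 to 19, 3186 overlapped no peak of the other lists (83.1%). Among the 1287 KO peaks inside protein-coding genes the share was 85.2%. Of all KO-only peaks, 34.4% lay inside genes (exact 95% interval 32.8 to 36.1) and the other 2089 lay outside. The genes holding a KO-only peak were 4.20% of 20665 protein-coding genes, and the genes holding 2 or more were 0.677%.

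The peaks were typical of the KO list, in which all peaks on chromosomes 1 to 19 had a median enrichment of 7.45, 16 reads where the number could be recovered and a width of 86 bp. The fold enrichment deposited by the authors was read as the ratio of reads over the summit to the local background, with 1 added to both. For the KO-only gene peaks its median was 7.45, with 6.06 and 9.32 as lower and upper quartiles and a range from 2.32 to 35.7. The read number behind each peak, recovered from the deposited values, had a median of 15, quartiles of 13 and 20, and a range from 9 to 120. At the genome background of the KO library, 1.15 reads, a single read was worth 0.466 of enrichment, so neighbouring ranks often differed by 1 read. The median width was 82 bp (65 to 350 bp).

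KO-only peaks outside genes had nearly the same values, with a median enrichment of 7.16, a median of 15 reads and a median width of 82 bp. The 190 KO peaks inside genes that were shared with another list were stronger, with a median enrichment of 21.6, a median of 51 reads where the number could be recovered, and a median width of 115 bp. In these measures the KO-only gene peaks were closer to the KO-only peaks outside genes than to the shared peaks inside genes. Both KO-only groups were chosen by having no call in the other lists, and KO peaks with few reads were seldom shared. This likeness therefore follows in part from the rule. A local background equal to that of the genome was found for 89.3% of KO-only gene peaks, for 85.1% of those outside genes and for 45.8% of the shared peaks inside genes.

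The KO library was the deepest of the 5 by its background. Its background of 1.15 reads was 3.38 times that of WT 1 (0.339), 9.80 times that of WT 2 (0.117), 3.50 times that of native LSK (0.327) and 52.2 times that of fixed LSK (0.022). Among peaks at the background of their own list, the weakest called had 9 reads in KO, 6 in WT 1, 4 in WT 2, 6 in native LSK and 3 in fixed LSK. Scaled by these ratios, a KO peak needed 21 reads to reach the weakest call of WT 1, 22 for native LSK, 40 for WT 2 and 157 for fixed LSK.

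Most KO-only gene peaks stayed under every one of these levels. Of the 1097, 259 (23.6%) reached the level of WT 1, 227 (20.7%) that of native LSK, 38 (3.46%) that of WT 2 and 0 that of fixed LSK. In all, 838 (76.4%) stayed under the weakest call of all 4 other libraries after scaling. For these, a signal equal to that in KO would have lain under the weakest call made in each other library.

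Sharing rose with the number of reads. Of KO peaks inside genes with 9 to 11 reads, 2 of 142 overlapped a peak of another list (1.41%), as did 8 of 354 with 12 to 14 reads (2.26%) and 20 of 372 with 15 to 20 reads (5.38%). The share was 36 of 254 with 21 to 38 reads (14.2%, exact 95% interval 10.1 to 19.1) and 115 of 156 with 39 or more (73.7%, 66.1 to 80.4). The 9 peaks too strong for their reads to be recovered were all shared.

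Reaching the scaled level did not ensure a call. Of KO peaks inside genes at or over it, WT 1 had called 76 of 410 (18.5%), native LSK 127 of 374 (34.0%) and WT 2 53 of 150 (35.3%). These include peaks over a raised local background, where a call would need more reads than the level. Under the level the counts were 3 of 868, 23 of 904 and 13 of 1128. For fixed LSK only 2 peaks were at or over its level, too few to give a share, and 0 were called. Under that level 19 of 1276 were called. The contributions of depth, of the genotype and of a pool that was prepared once cannot be told apart for these regions.

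**Figure D1:**
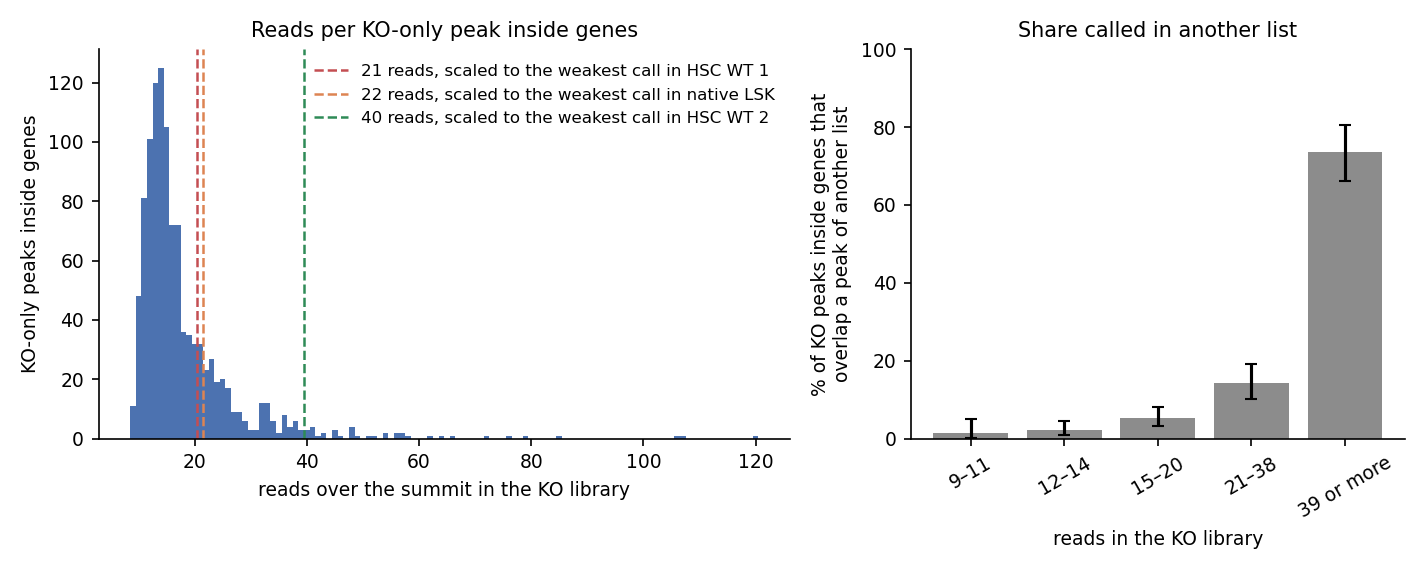
Left, histogram of the reads over the summit of the 1097 KO-only gene peaks (x axis, reads; y axis, number of peaks), with dashed lines at the 21, 22 and 40 KO reads that scale to the weakest call of WT 1, native LSK and WT 2. Right, percent of all KO peaks inside genes that overlap a peak of another list by read class, with exact 95% intervals; the share is 1.41% at 9 to 11 reads and 73.7% at 39 or more.

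The strongest KO-only gene peak lay in Cald1, which encodes the actin- and calmodulin-binding protein caldesmon. It spanned chr6:34626415-34626508 (mm10), held 79 reads (exact 95% Poisson interval 62.5 to 98.5) and had an enrichment of 35.7. Scaled to the other libraries it would correspond to 23.3 reads in WT 1, 8.06 in WT 2 and 22.6 in native LSK, each above the weakest call there, and to 1.51 in fixed LSK, under the weakest call of 3. No peak was called within 651 kb of it in any other list.

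A group of 5 peaks followed with enrichments from 25.1 to 27.5. The peak in Pald1, encoding the phosphatase-domain protein paladin, had 58 reads and an enrichment of 27.5 at chr10:61374031-61374103. Fndc3b, which encodes a fibronectin type III domain protein, held a peak of 57 reads and 27.0 at chr3:27478032-27478144. Clvs1, encoding a clathrin-associated lipid-binding protein, held one of 56 reads and 26.6 at chr4:9207793-9207920. The 5 peaks lie within counting error of each other: the interval of Pald1 was 44.0 to 74.98 reads and that of Clvs1 42.3 to 72.7. The other 2 were Qrfprl, a receptor gene, with 54 reads and 25.6 at chr6:65431125-65431240, and Nuak1, an AMPK-related kinase gene, with 57 reads and 25.1 at chr10:84376684-84376805.

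In the next ranks, Prkch, a protein kinase C gene, and Rora, a nuclear receptor gene, each held a peak of 48 reads with an enrichment of 22.8, at chr12:73618567-73618650 and chr9:68813122-68813229. Nrg1, which encodes a ligand of the ErbB receptors, held 1 peak of 46 reads (21.9) at chr8:31889265-31889365 and 1 of 41 reads (19.6) at chr8:31919034-31919151, and was the gene with 2 peaks among the strongest 15. The rest of that 15 were peaks in Lmbr1 (21.4), Ppp1r12a (21.4), Antxr2 (20.4), Olah (20.2) and the calcium channel gene Cacna1e (20.0). Only 13 KO-only gene peaks (1.19%) reached an enrichment of 20 and 217 (19.8%) reached 10, while 1042 (94.99%) reached 5.

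Read number alone gave a different top. Of the 41 KO-only gene peaks with 39 or more reads, 23 lay where the local background exceeded 1.5 times that of the genome, and the median enrichment of all peaks over such a background was 3.65. Leaving such regions out, 18 of 107 KO peaks inside genes with 39 or more reads were KO-only, and 83.2% were shared (exact 95% interval 74.7 to 89.7). Gene length did not run in order with strength: the median span of the genes was 148 kb for peaks of 9 to 11 reads, 171 kb for 12 to 14, 146 kb for 15 to 20, 121.1 kb for 21 to 38 and 146 kb for 39 or more.

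The regions of high background were 50 peaks (4.56%) in 20 genes, and 33 of the 50 lay in 3 genes. Sfi1, which encodes a centrin-binding protein of the centrosome, held 23 KO-only peaks in a span of 71.5 kb, the most of any gene. Their reads ran from 32 to 66 over local backgrounds of 8.85 to 27.2 reads, up to 23.7 times the genome background, and their enrichments from 2.32 to 5.31. Tmem267, a transmembrane protein gene, held 7 peaks of 51 to 120 reads within 5.5 kb over backgrounds of 18.5 to 24.1 reads, and 5 more KO peaks there were shared with other lists. Speer4e held 3 peaks of 19 to 24 reads over backgrounds of 4.39 to 4.64.

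The other 17 included peaks in Smo, Myo3a and Qpct and in genes with predicted names. Gm36327, Gm51571, Gm51573, LOC100504180 and Duxf3 held 1 each, and these 5 are also the shortest genes with a KO-only peak, from 2.43 kb for Gm51573 to 3.59 kb for Duxf3, and all 5 peaks had enrichments from 3.34 to 4.53. A raised local background is what the files show at these genes. Repeat content, copy number and the mapping of reads to near-identical copies could not be examined without a genome, and their part in these peaks was not tested.

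**Figure D2:**
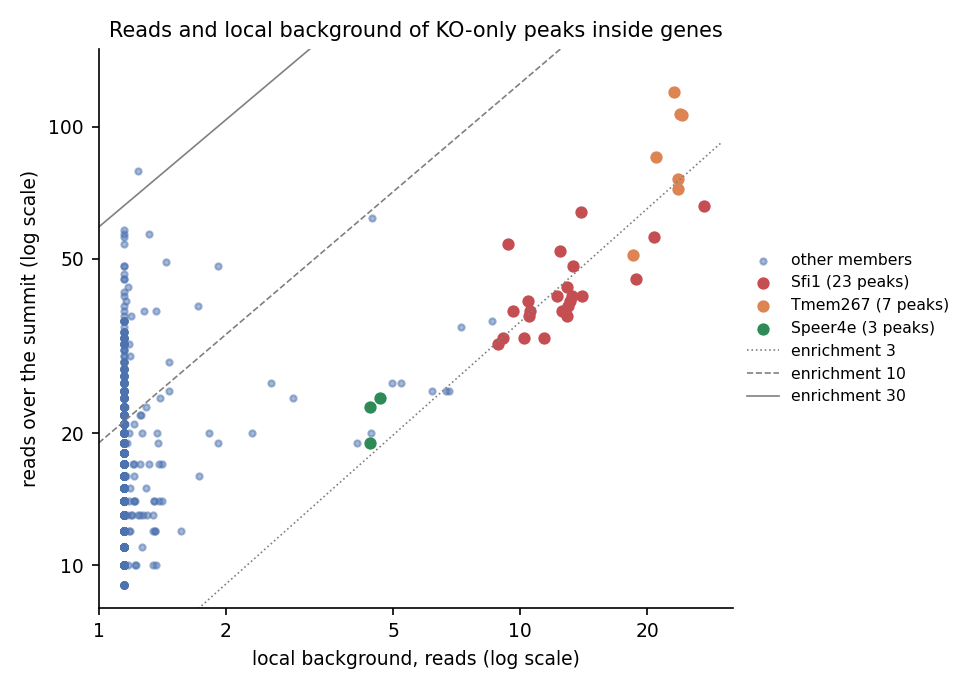
Reads over the summit (y axis, log scale) against local background in reads (x axis, log scale) for the 1097 KO-only gene peaks, with lines of equal deposited enrichment at 3, 10 and 30. Most points stand in the column at the genome background of 1.15 reads, and the 23 peaks of Sfi1, 7 of Tmem267 and 3 of Speer4e lie at backgrounds of 4.39 to 27.2 reads.

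The genes holding KO-only peaks were long. Their median span was 120 kb against 17.49 kb for all protein-coding genes, and 238 of 868 (27.4%) exceeded 300 kb against 2.58% of all genes. Genes with 1 peak had a median of 101 kb, those with 2 or more 415 kb and those with 3 or more 692 kb. Genes holding a KO peak shared with another list were long as well, with a median of 141 kb, so great length was not confined to the KO-only genes.

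The share of genes with a KO-only peak climbed through 6 classes of gene span. It was 18 of 7343 genes under 10 kb (0.245%), 98 of 6127 from 10 to 30 kb (1.60%) and 268 of 4882 from 30 to 100 kb (5.49%). It went on to 246 of 1780 from 100 to 300 kb (13.8%), 192 of 478 from 300 kb to 1 Mb (40.2%) and 46 of 55 over 1 Mb (83.6%, exact 95% interval 71.2 to 92.2). A longer gene gives a peak more room, so the same counts were divided by the total span of each class.

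Per megabase the classes were far closer together. There were 0.648 peaks per Mb of gene span under 10 kb (exact 95% Poisson interval 0.396 to 1.00), 0.917 from 10 to 30 kb, 1.15 from 30 to 100 kb and 0.996 from 100 to 300 kb. Above that the rate was 1.28 from 300 kb to 1 Mb (1.14 to 1.43) and 1.31 over 1 Mb (1.06 to 1.60), against 1.11 over all genes. The longest class thus stood 2.02 times over the shortest (interval 1.24 to 3.46). This ratio rested partly on the high-background peaks: without them the shortest class fell from 20 peaks to 10, or 0.324 per Mb, and the ratio became 4.04. The intervals treat peaks as independent, although neighbouring peaks share a region and, in all cases, the library.

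**Figure D3:**
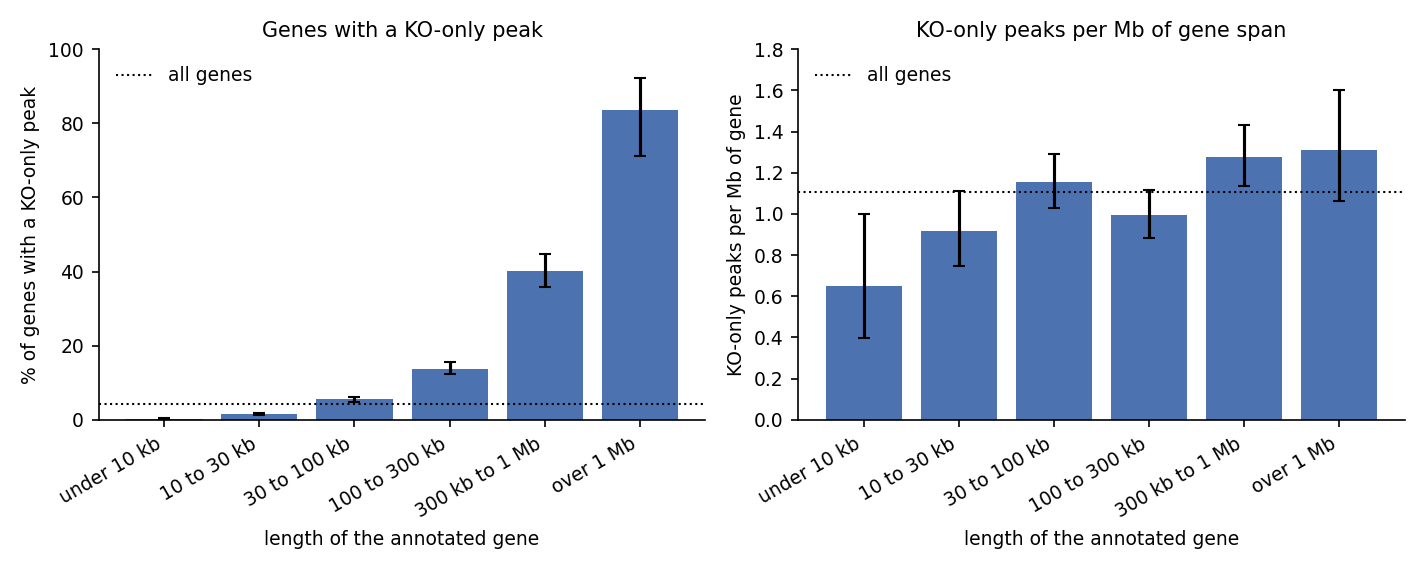
Percent of protein-coding genes with at least 1 KO-only peak (one panel) and KO-only peaks per Mb of gene span (the other panel) in 6 classes of gene span, with exact 95% intervals. The percent rises from 0.245% to 83.6%, while the rate per Mb stays between 0.648 and 1.31.

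The longest genes with a peak differed in how many they held. Ptprd, encoding a receptor tyrosine phosphatase, spans 2271 kb and held 4 KO-only peaks, and Cntnap2, of the contactin-associated family, spans 2241 kb and held 3. Lsamp (2197 kb), a limbic-system adhesion protein gene, Lrp1b (2058 kb), a lipoprotein-receptor-related gene, and Dlg2 (1973 kb), a postsynaptic scaffold gene, held 1 each. Cntnap2, Lrp1b and Dlg2 each also held 1 KO peak shared with another list, while Ptprd and Lsamp did not. The counts are small, and whether they differ by more than counting error was not tested.

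By chromosome the rate ran from 0.725 per Mb of genic sequence on chromosome 15 (29 peaks, exact 95% Poisson interval 0.485 to 1.04) to 1.63 on chromosome 8 (84 peaks, 1.30 to 2.02), around 1.11 over all. Chromosome 1 held the most, 101 peaks at 1.30 per Mb. The interval of chromosome 8 lay above the rate over all chromosomes, and that of chromosome 15 lay below it.

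Of the 868 genes, 728 held 1 KO-only peak, 92 held 2, 29 held 3, 10 held 4, 5 held 5, and Inpp4b, Tmem267, Rbfox1 and Sfi1 held 6, 7, 9 and 23. The 140 genes with 2 or more together held 381 of the peaks. In these 140 genes the closest neighbours were a median of 49.8 kb apart. In 35 of them 2 peaks lay within 10 kb of each other, and in 19 within 1 kb. Of the 48 genes with 3 or more, 32 had all peaks at least 10 kb apart and 39 (81.3%) exceeded 300 kb.

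Rbfox1, which encodes an RNA-binding splicing regulator of neurons and muscle, was the widest of the spread-out genes. Its 9 peaks were distributed over 1229 kb of a span of 1528 kb, with enrichments from 5.59 to 11.6 and 11 to 24 reads. The strongest lay at chr16:6097000-6097094 (24 reads) and chr16:7325616-7325719 (23 reads). None of the other lists had a peak in Rbfox1. Of the 48 genes with 3 or more KO-only peaks, 10 held a peak of another list. Inpp4b, a phosphoinositide phosphatase gene of 792 kb, held 6 peaks of 12 to 23 reads over 446 kb, and unlike Rbfox1 it also held peaks of WT 1, WT 2 and native LSK.

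A receptor and its ligand were both among the 5 genes with 5 peaks. Erbb4, encoding a neuregulin receptor, had its 5 spread over 1014 kb with 10 to 17 reads each and enrichments from 5.12 to 8.39. In Nrg1 the enrichments were 21.9, 19.6, 8.85, 6.52 and 5.12, over 658 kb of a span of 1084 kb. The other 3 were Agbl1, a carboxypeptidase gene (6.52 to 10.2), Mctp1, a calcium-binding membrane protein gene (strongest 15.4), and Pcdh9, a protocadherin gene (6.06 to 7.92). Except for the strongest peaks of Nrg1 and Mctp1, the peaks of these 5 genes had enrichments between 5.12 and 10.2. Mctp1 also held a peak of WT 2 and Pcdh9 a peak of native LSK, while Erbb4, Nrg1 and Agbl1 held no peak of another list.

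Among genes with 4 peaks, Fmn2, an actin-nucleating formin gene, packed them into 98.0 kb, with a strongest enrichment of 18.6 (39 reads). Ptprt, another receptor tyrosine phosphatase gene, reached 15.8, and Trpm3, a cation channel gene, 14.9. Dpyd, the initial enzyme of pyrimidine breakdown, reached 10.2. Each of these 4 genes is longer than 300 kb, and none held a KO peak shared with another list.

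Other genes held several peaks in a short stretch. Slc30a4, a zinc transporter gene of 21.4 kb, held 4 within 0.87 kb, with 10 to 14 reads and enrichments from 4.64 to 6.28 over backgrounds of 1.35 to 1.39 reads. Nbas, a gene of vesicle transport between Golgi and endoplasmic reticulum, held 3 within 0.58 kb (6.39 to 7.86), and 1700018B08Rik, a predicted gene of 13.6 kb, held 3 within 0.534 kb (7.92 to 8.39). In Szrd1 a pair lay 101 bp apart. These peaks were called separately but lay close enough to share fragments, so a count of peaks in such a gene is not a count of separate regions.

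By number per 100 kb the order was Speer4e (61.9), Sfi1 (32.2), 1700018B08Rik (22.1), Slc30a4 (18.7) and Szrd1 (7.46). In each of the 5, peaks lay in short stretches or over a raised background. In Rbfox1, by contrast, the value was 0.589.

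**Figure D4:**
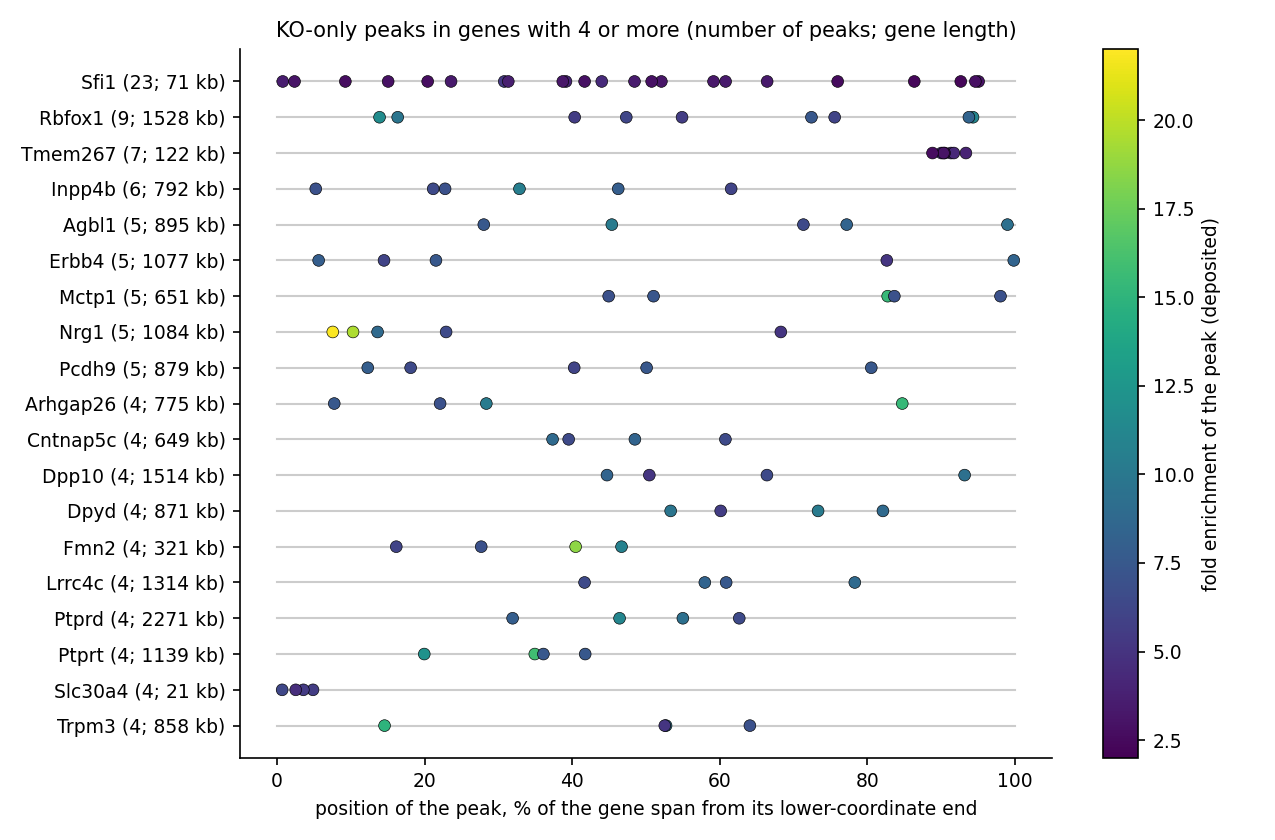
Position of each KO-only peak along the 19 genes with 4 or more (x axis, percent of the gene span from its lower-coordinate end), coloured by deposited fold enrichment; the number of peaks and the gene span are given with each name. Peaks in long genes such as Rbfox1 and Erbb4 are spread over the span, while those of Tmem267 and Slc30a4 are bunched within 5.5 kb and 0.87 kb.

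Most peaks lay more than 1 kb from a gene boundary. The median distance from a peak to the nearest gene boundary was 31.5 kb, and 23 of 1097 (2.10%) lay within 1 kb of one. For the shared KO peaks inside genes the values were 25.5 kb and 8 of 190 (4.21%). Such distances depend on gene length, and the same values over all gene sequence were not computed. Strand was known for 675 of the genes, and in their 851 peak-gene pairs 34.2% of peaks lay in the 5′ part, 32.3% in the middle and 33.5% in the 3′ part of a span divided into 3. Positions were thus spread nearly evenly along the genes.

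Promoter windows, from 250 bases before to 50 after a RefSeq start, could be compared with the 1061 peaks on chromosomes that the promoter table covers, and 0 of these overlapped one. The shared KO peaks inside genes also had 0 overlaps, among 185. The rule asks only for overlap with a gene, but each KO-only gene peak was found to lie wholly inside one, which limits such overlaps. At the outer start of a gene, only the 50 bases after the start lie inside that gene. The share of gene sequence that lies in such windows was not computed, so the 0 does not show that promoters were avoided. A summit within 1 kb of a listed start was found for 13 of the 1061 peaks. The nearest, at 157 bp from the 5′ boundary, lay in Wipf2, a gene of actin assembly (21 reads, enrichment 10.2). Ccdc124 held one 842 bp from its 5′ boundary (10.2), and Triml1, a tripartite motif family gene, one at 622 bp (13.5), the strongest within 1 kb of any boundary. Exons and introns could not be told apart, because the table gives whole gene spans. A long noncoding RNA gene overlapped 34 of the peaks (3.10%) and a pseudogene 3, and miRNA, snRNA, snoRNA and tRNA genes overlapped 0.

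The same gene sometimes held a peak of another list elsewhere in its span. Among genes with a KO-only peak, 86 of 868 (9.91%) did, against 343 of all 20665 genes (1.66%). These 86 were 25.1% of the genes with a peak in any other list. By list they were 24 genes for WT 1, 36 for WT 2, 50 for native LSK and 25 for fixed LSK. Both shares count long genes more often, and the overlap was not tested beyond these counts.

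Distances to other lists were usually great. The median distance from a KO-only gene peak to the nearest peak of another list was 761 kb, with 11 peaks closer than 500 bp and 19 closer than 10 kb. The closest was in Ppp1r9a, a neuronal actin-binding protein gene, where a KO peak of 14 reads (6.79) ended 68 bp from a WT 2 peak. In Smo, the transducer of Hedgehog signals, a KO peak of 62 reads (11.6) lay 75 bp from a native LSK peak, and in Tmem267 one of 51 reads lay 78 bp from a WT 2 peak. Just outside the rule were KO peaks in Galntl6 (6.52), which overlapped a native LSK peak by 34 bp, and in Fyn (6.99) and Phldb2 (7.92), which overlapped one by 46 bp each. Just outside a gene were KO-only peaks 8 bp from Mark4 and 9 bp from Olfr316. Each of the 1097 peaks lay wholly inside a gene, so the 1 bp rule on genes decided none of them.

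Gene families were compared by the share of their genes with a KO-only peak and by peaks per Mb of their span, beside 4.20% and 1.11 per Mb over all genes. In the contactin, neurexin and neuroligin group 23 of 51 genes (45.1%) held a peak, with Igsf5, Cadm1 and Dscam holding the strongest, and the rate was 1.53 per Mb (exact 95% Poisson interval 1.07 to 2.10). Glutamate receptor genes followed at 8 of 25 (32%) and 1.32 per Mb (0.682 to 2.31), and teneurins and adhesion GPCRs at 7 of 28 (25%) and 1.74 (0.897 to 3.03). For cadherins and protocadherins the values were 8 of 56 (14.3%) and 1.61 (0.954 to 2.54). All 4 intervals held the rate over all genes.

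Channel, guidance and phosphatase families were examined in the same way. Calcium and sodium channel genes held peaks in 13 of 74 (17.6%) at 1.68 per Mb (1.01 to 2.62), with Cacna1e strongest, and potassium channel genes in 7 of 92 (7.61%) at 0.844. GABA-A receptor genes held 1 peak, in Gabra2, among 16 genes. Axon guidance genes held peaks in 13 of 68 (19.1%) at 1.13 per Mb and receptor tyrosine phosphatases in 4 of 21 (19.05%) at 1.40. The interval of every rate in these families included 1.11.

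Among families of shorter genes, solute carriers held peaks in 21 of 376 (5.59%) at 1.38 per Mb and zinc finger Zfp genes in 13 of 391 (3.32%) at 1.10. Olfactory and vomeronasal receptor genes, the largest family examined, held peaks in 6 of 1480 (0.405%), all 6 of them vomeronasal. These 6 had a median span of 26.6 kb against 0.951 kb for the family. Yet the rate of the whole family, 1.03 per Mb, was close to that over all genes. A list of 43 very large genes, put together partly by length, showed the reverse: 28 of them (65.1%) held a peak, and the rate was 1.14 per Mb (0.865 to 1.47). These 2 extremes differed far more in the share of genes than in the rate per megabase.

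**Figure D5:**
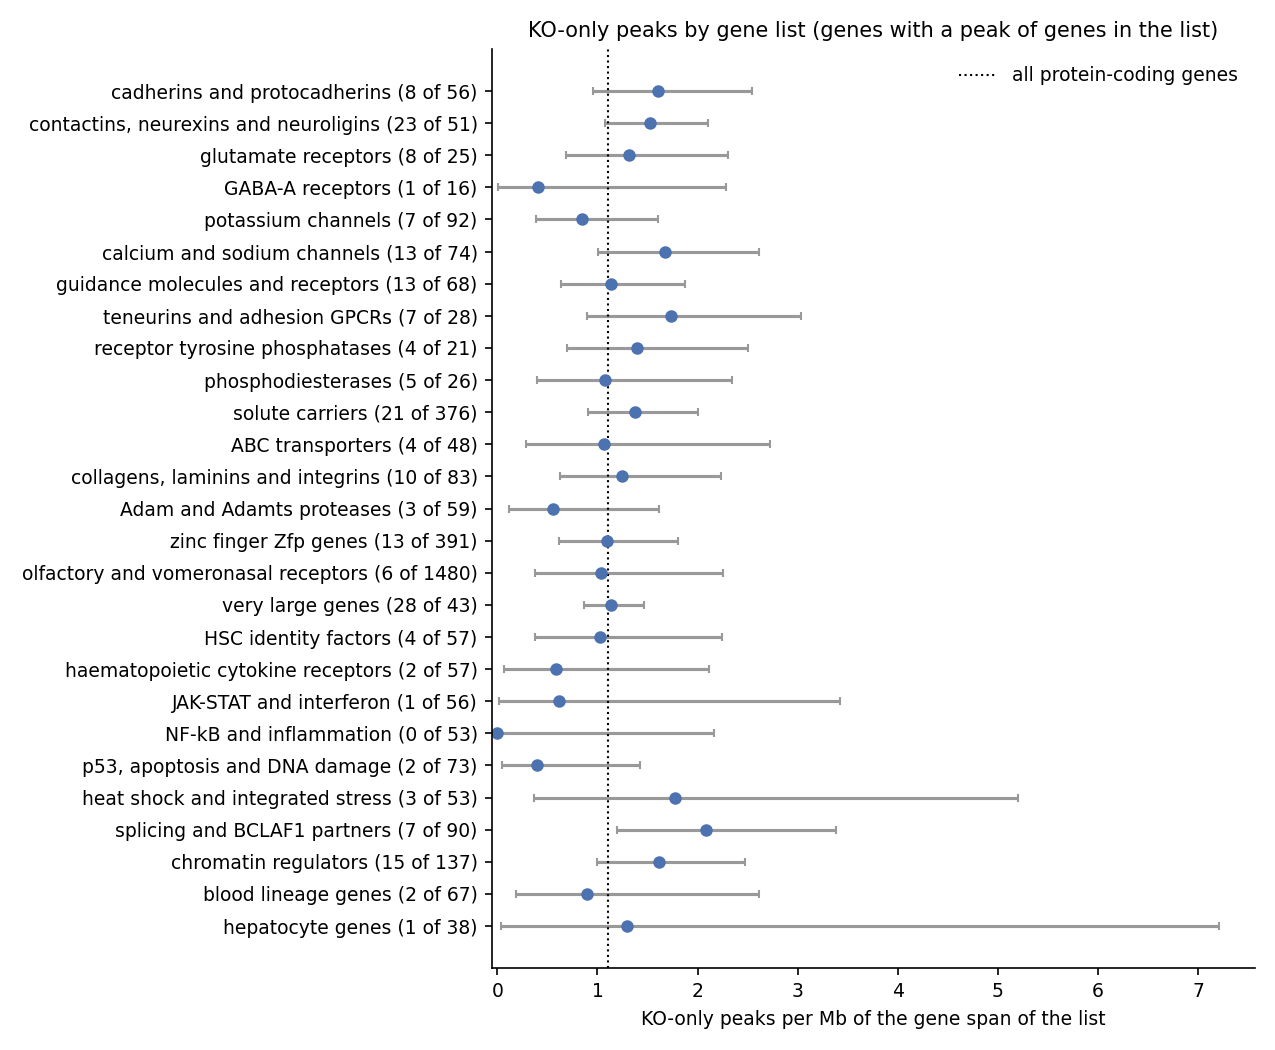
KO-only peaks per Mb of gene span for gene families and lists (points), with exact 95% Poisson intervals (bars) and the rate of 1.11 per Mb over all protein-coding genes as a line. Most intervals include the line, among them those of the adhesion gene families with 1.53 and 1.61 per Mb.

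Genes of RNA processing and chromatin bear on the known partners of BCLAF1. In the list of splicing genes and BCLAF1 partners 7 of 90 (7.78%) held 16 peaks, at 2.09 per Mb (exact 95% Poisson interval 1.19 to 3.39), above the rate over all genes. Of the 16 peaks 9 lay in Rbfox1, and without that gene, left out after its values were seen, the rate was 1.14 (0.458 to 2.35). The other 6 genes were Srpk2, Srsf12, Srsf4, Khdrbs2, Celf2 and Mbnl1. Chromatin regulators held 21 peaks in 15 of 137 genes (10.9%) at 1.61 per Mb (1.00 to 2.47). The strongest was in Setdb2 (13.5), a histone methyltransferase family gene, and the same peak also lay in the predicted gene Gm45935. Next came Hdac9 (11.2), a histone deacetylase gene with 3 peaks, and Prdm1 (10.2), which encodes the repressor BLIMP1.

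Genes of blood stem cells and of stress responses are the subject of the study's title. Among HSC identity genes 4 of 57 (7.02%) held a peak, at 1.03 per Mb (0.378 to 2.24). Msi2, an RNA-binding regulator of stem cells, held peaks of 32 reads (15.4) and 15 reads (7.45). It also held 1 KO peak shared with another list, 1 peak of WT 1 and 1 of native LSK. Cd48, a surface marker absent from the purest stem cells, held a KO-only peak of 10.7. Zbtb16, encoding the transcription factor PLZF, held 2 of 7.45 and 6.99, and Meis1, a homeobox regulator of stem cells, 1 of 5.59. No peak of another list lay in Cd48, Zbtb16 or Meis1, and among all genes with a KO-only peak 86 of 868 (9.91%) held one. The Cd48 peak had 22 reads. Those of Zbtb16 (15 and 14 reads) and Meis1 (11 reads) stayed under the scaled level of every other library. Cytokine receptor genes held peaks in 2 of 57, Il1r1 (9.78) and Bmpr1a (6.52), and lineage genes in 2 of 67, Itgb3 (7.45) and Ebf1 with 2.

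In the stress lists, 1 of 56 JAK-STAT and interferon genes held a peak, Ifnlr1 (6.06). Of the p53, apoptosis and DNA damage list 2 of 73 did, Trp53bp1 (11.2) and Wrn (6.52), and among heat shock and integrated stress genes 3 of 53, Atf6 (8.85), Dnajc6 (8.39) and Eif2ak4 (7.45). None of 53 NF-kB and inflammation genes did, which by the exact 95% interval allows a share of up to 6.72% and a rate of up to 2.16 per Mb. Of 38 hepatocyte genes only Cps1 held a peak (6.99), at 1.29 per Mb (0.0327 to 7.20). Peak lists hold no expression, so this cannot show whether liver cells were in the sort. The rates of these lists had wide intervals, and all of them included 1.11 per Mb.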

How the data were processed

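The files are 1 narrowPeak list per library, as the authors deposited them. The genome build is mm10, per the submitters' processing notes, and the alignment tool, peak caller, control and duplicate handling are not named in the sources used here. Each deposited list gives a score, a fold enrichment (a ratio to the local background), a −log10 p-value, a −log10 q-value and the summit position. Enrichments were used to describe and rank peaks within the KO list.

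Reads and local background were solved from the deposited fold, with a pseudocount of 1 on both, and from the Poisson p-value (relative tolerance 0.0001), for −log10 p no higher than 300; a whole read number was found for 100% of such peaks. The most common background of a list served as its depth. Gene spans came from the RefSeq table of GRCm38.p6, which has the coordinates of mm10; a peak in 2 genes counted for both in rates by gene. No genome was at hand, so no region sequence, GC content, repeat or exon was examined. Intervals are exact (Clopper-Pearson binomial or Poisson, 95%) and cover counting error only, since without molecular identifiers the reads may repeat molecules.

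No significance test was made, since KO is 1 library. Whether the WT libraries came from separate pools is not stated. The regions and the 28 gene lists were chosen with earlier results of these data known. Of these lists, 1 is not reported here. Named genes were the 15 strongest peaks, all genes with 3 or more peaks and 10 with 2, the 5 longest and shortest, the 5 densest, the 10 strongest within 1 kb of a boundary and up to 3 per list; of these the text gives a selection. Span classes and the exclusion of peaks over 1.5 times the genome background were chosen after seeing the data. Alternatives changed the q-value, overlap, merging, excluding lists, and gene set. Scripts were tested on simulated peaks and used Python 3.11.15, pandas 2.3.3, numpy 2.4.6, scipy 1.17.1 and matplotlib 3.10.9.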

Additional observations from a re-analysis of the deposited data

How the results depend on the processing

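Of 56 alternative values, 55 kept within the limits set for each result and 1 moved: without peaks over 1.5 times the genome background, an alternative chosen after seeing the data, the ratio of peaks per Mb between the longest and the shortest genes was 4.04 in place of 2.02, because the shortest class lost 10 of its 20 peaks. The number of KO-only gene peaks ran from 941 (−log10 q of at least 5) to 1183 (HSC WT lists alone excluding), and without WT 1 or WT 2 it was 1107 and 1103. The number of genes with 2 or more ran from 115 (peaks within 10 kb counted as 1) to 155, with 141 and 142 without each WT library. Without a WT library the median gene span was 119 kb in both cases and the ratio 2.02 and 1.93. The ratio was 2.86 with peaks within 10 kb counted as 1 and 2.78 without predicted genes. Both kept within the limit, a factor of 1.5, but the ratio varied more than these WT alternatives show. The median enrichment was 7.45 throughout, and 14 of the 15 strongest peaks stayed in the top 15 by q-value or without the pseudocount. No paired analysis was possible because the KO group has 1 library and the results come from no test. The lists differ in depth, whose part in the absence of a peak cannot be told apart from genotype and pool, and every value holds for 1 KO library.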
